A study of Caenorhabditis elegans with 22 samples.

Results

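The genes described here are 8 genes of ion transport and its control, taken by gene ID out of the 45460 genes in the deposited table and chosen for their known function. They are the kinase gene *wnk-1* (C46C2.1), the cotransporter gene *nkcc-1* (Y37A1C.1), the chloride channel genes *clh-1* (T27D12.2), *clh-2* (B0491.8), *clh-3* (E04F6.11) and *clh-4* (T06F4.2), and the sodium pump genes *eat-6* (B0365.3) and *nkb-1* (C17E4.9). All 8 had a row in the table. In the WBcel235 annotation they lie on chromosomes IV (*wnk-1*, *nkcc-1*), V (*eat-6*), II (*clh-1*, *clh-2*, *clh-3*), X (*clh-4*) and I (*nkb-1*). No gene on the same strand overlaps an exon of any of them, whereas *ins-34* and C33B4.2 lie on the opposite strand of *nkcc-1* and *clh-2*, and the authors counted with strand.

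RNA-seq was made from whole *C. elegans* embryos after 3 h on plates with 500 mM or 50 mM NaCl, in 22 libraries. They were split here into 2 experiments, each with its own wild type, by the prefix of their library numbers and by the mutant. The labels themselves name no experiment. The *daf-16* experiment had 3 libraries each of *daf-16* mutants at 500 mM, *daf-16* mutants at 50 mM, wild type at 500 mM and wild type at 50 mM. The *ssu-1* experiment had 3 libraries of *ssu-1* mutants at 500 mM, 2 of *ssu-1* mutants at 50 mM, 3 of wild type at 500 mM and 2 of wild type at 50 mM. DAF-16 is the FOXO transcription factor of the insulin pathway, and SSU-1 is a cytosolic sulfotransferase. Wild type was the Bristol strain N2. The strain label of the *daf-16* libraries lists the alleles m26 and mu86, and the protocol names only m26. The strain label of the *ssu-1* libraries lists fc73, n5883 and tm1117 together with gk266317, gk747222, gk876992 and gk319712, and also the array zIs356, a *daf-16* promoter driving DAF-16a/b fused to GFP with a *rol-6* marker, whereas the protocol names only fc73. Which of these the sequenced embryos carried is not settled by the labels. The paper's strain list for the whole study holds all of these names, and its RNA-seq methods name only m26 and fc73. The replicates are called biological by the submitters, but nothing says how the cultures were kept apart, so the p-values measure the spread between these libraries. Each library pooled whole embryos whose age is not stated. In such bulk RNA, fewer cells of a type and less RNA per cell cannot be told apart.

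Animals in salty surroundings lose water, and their cells regain volume by taking up salt and by making organic solutes such as glycerol. WNK kinases respond to cell shrinkage and low chloride, and in mammals they act through further kinases to switch on sodium-potassium-chloride cotransporters and switch off potassium-chloride cotransporters. CLC proteins carry chloride across membranes. The sodium pump, made of an alpha and a beta subunit, sets the sodium and potassium gradients that all these transporters use.

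Expression was given by the authors as FPKM, fragment counts scaled to transcript length and to the number of mapped fragments, and changes are stated as log2 differences of FPKM + 1, which understate changes of genes near 1 FPKM. Tests were made with limma on all libraries of an experiment, and a gene is called changed when its p-value, Benjamini-Hochberg adjusted over all genes tested (those that reached an FPKM of 1 in 2 or more libraries), is below 0.05. Mapped fragments, whose number was read off the steps between low FPKM values, came to an estimated 13950000 to 24700000 per library in the *daf-16* experiment and 20350000 to 28150000 in the *ssu-1* experiment. From these, *eat-6* rested on about 29000 to 70000 fragments per library, *wnk-1* on 3500 to 16000, *clh-3* on 63 to 390 and *clh-4* on 49 to 160. *gpdh-1*, the glycerol synthesis gene induced by salt, averaged 183 ± 9.79 FPKM in *daf-16* mutants at 500 mM against 3.50 ± 0.76 at 50 mM (SD, n = 3 each), and wild type of the same experiment averaged 139 ± 6.07 at 500 mM against 2.67 ± 0.88 at 50 mM (SD, n = 3 each). The *ssu-1* gene was at 1.53 ± 0.28 FPKM in *ssu-1* mutants and 2.85 ± 0.13 in wild type at 500 mM (SD, n = 3 each, limma adjusted p = 0.0441), and its log2 difference at 50 mM was -0.91 (limma adjusted p = 0.0664). *daf-16* mRNA in *daf-16* mutants exceeded wild type by 0.86 on the log2 scale at 50 mM (limma adjusted p = 0.0021) and differed by 0.11 at 500 mM (limma adjusted p = 0.493). In *ssu-1* mutants it differed from wild type by -0.07 at 50 mM (limma adjusted p = 0.593) and -0.53 at 500 mM (limma adjusted p = 4.06e-05). Whether the *ssu-1* libraries carried the array zIs356 was not tested. All 10 early embryo and all 10 later embryo marker genes reached 1 FPKM in every group. Summed markers of the adult mother were at 2.61 to 5.76 FPKM and those of sperm at 0.27 to 1.79 FPKM in any library. In the *daf-16* experiment, wild-type 50 mM replicates 3 and 4 carry library numbers of another series than the other 10 libraries. These 2 replicates were placed in that experiment by the prefix of their numbers. Results of *wnk-1* and *nkcc-1* that rest on them are also given without them, in a fit that leaves 1 wild-type library at 50 mM and assumes that it varies like the other groups. In that fit the wild-type log2 salt changes of *clh-1*, *clh-2*, *clh-3*, *eat-6* and *nkb-1* were -0.65, -1.21, -0.83, -0.45 and -0.35.

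High salt moved most of these genes, and it moved them in opposite directions. The mRNA of the kinase WNK-1 rose at 500 mM in both genotypes of both experiments. The chloride channel gene *clh-2* fell in all 4 salt comparisons and *clh-1* in 3 of them, and the sodium pump alpha subunit gene *eat-6* fell in both wild types and in *daf-16* mutants. The cotransporter gene *nkcc-1* rose in wild type of the *daf-16* experiment and did not pass the test in the other 3 salt comparisons. The largest changes were those of *clh-2* and *wnk-1* in *daf-16* mutants, with log2 changes of -1.67 (SE 0.13) and 1.31 (SE 0.12).

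These calls stand against a background in which much of the transcriptome moved with salt. In *daf-16* mutants 7 of 8 genes were called changed, 1 higher and 6 lower, where 78.1% of the 14868 genes tested were called (37.1% higher, 41.1% lower). In wild type of that experiment 7 of 8 were called, 2 higher and 5 lower, against 70.1% of the genes tested (36.7% higher, 33.5% lower). In *ssu-1* mutants 2 of the 7 genes tested were called, 1 higher and 1 lower, against 36.6% of 13924 (18.5% higher, 18.1% lower), and in wild type of that experiment 4 of 7 were called, 1 higher and 3 lower, against 51.3% (26% lower). *clh-4* was below 1 FPKM in every library of the *ssu-1* experiment and was not tested there. Both backgrounds of the *ssu-1* experiment depend on the libraries kept. The 7146 genes called in wild type became 6077 to 7123 when 1 of its 500 mM libraries was left out. The 5098 called in *ssu-1* mutants became 3802 to 4451 in the same way. Leaving out a 50 mM library leaves only 1 in its group, so the fall in those fits cannot be laid to a particular library. Counting both directions, the 8 genes were called about as often as all genes in the *daf-16* experiment, while their calls there were mostly lower and those of all genes were split nearly evenly. No test of this split was made. Their median log2 change was -0.42 in *daf-16* mutants, where the median of all genes was -0.06, and -0.32 in wild type of the same experiment, where it was 0.06.

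**Figure D1:**
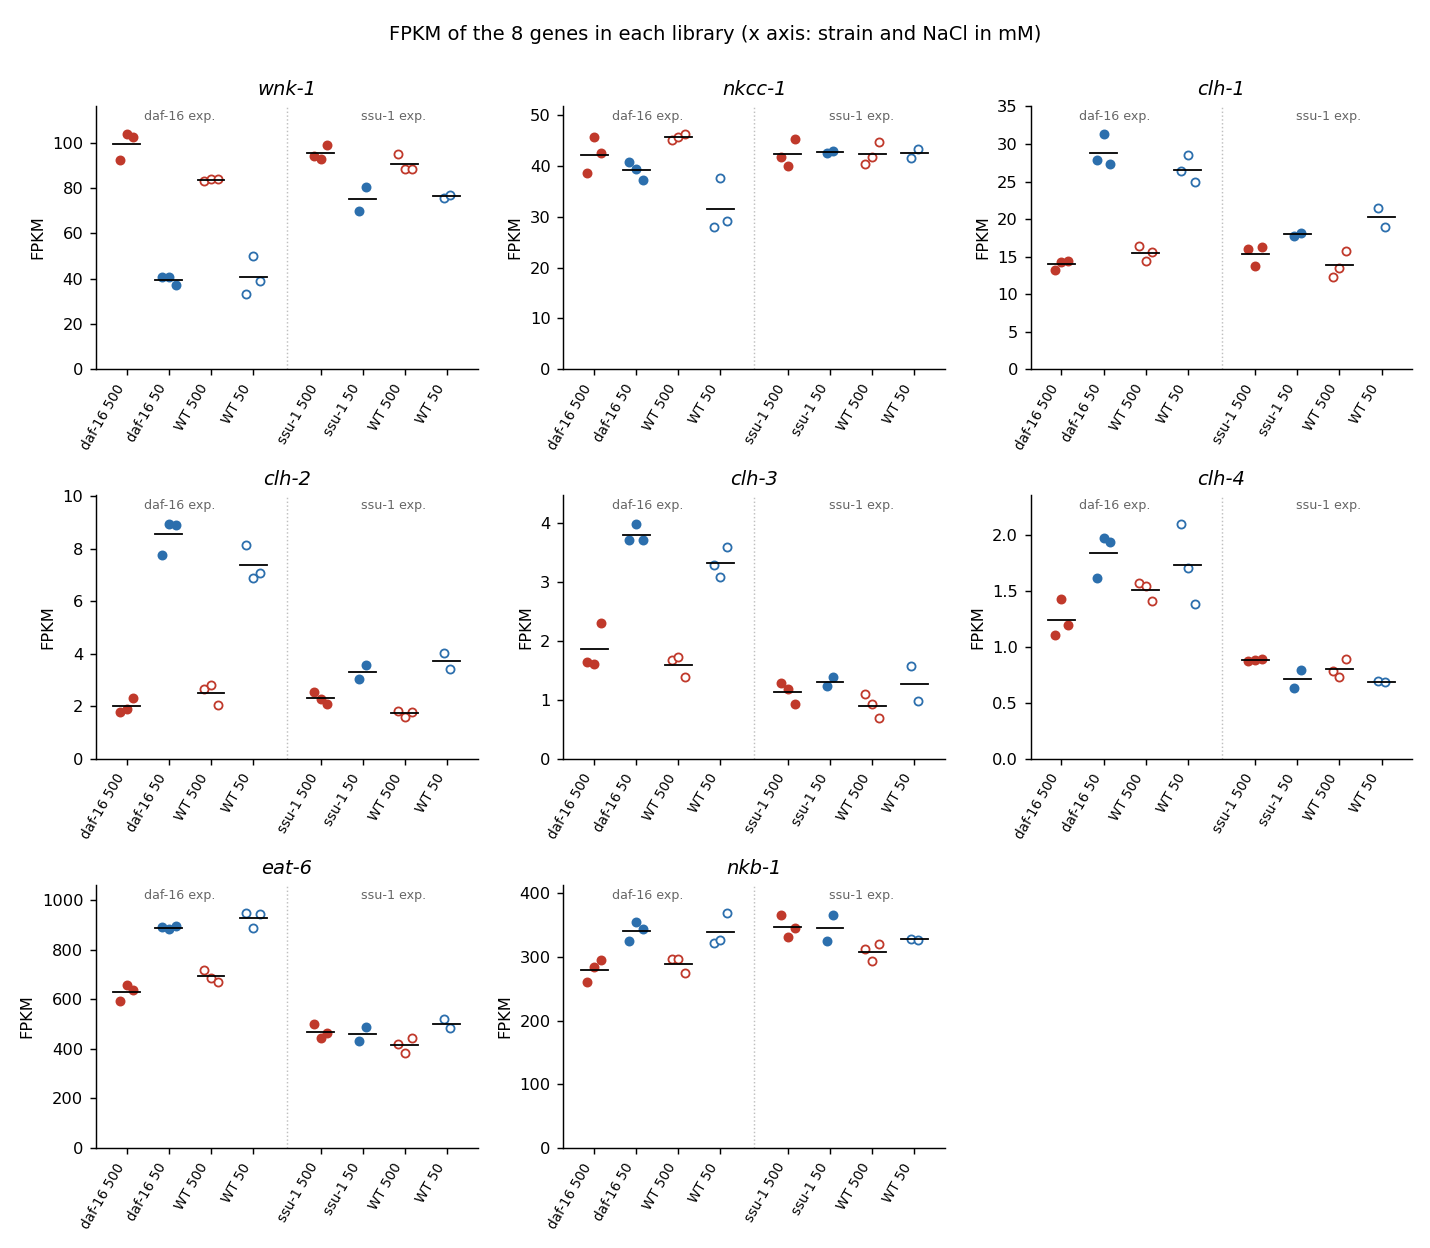
FPKM of each gene (y axes, starting at 0) in every library, by strain and NaCl concentration in mM (x axes), with the *daf-16* experiment left and the *ssu-1* experiment right of the dotted line. Points are libraries (red 500 mM, blue 50 mM, filled mutant, open wild type) and bars are means. *wnk-1* lies between 83.1 and 103.9 FPKM at 500 mM and between 33.4 and 50.0 FPKM at 50 mM in the *daf-16* experiment, while the same groups of *nkb-1* span 261 to 297 and 321 to 369 FPKM.

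*wnk-1*, the WNK kinase gene, had 92.3, 103.9 and 102 FPKM in *daf-16* mutants at 500 mM, against 40.6, 40.5 and 37.2 FPKM at 50 mM. Wild type of that experiment had 83.1, 84.0 and 84.1 FPKM at 500 mM, against 33.4, 50.0 and 38.95 FPKM at 50 mM. In both genotypes all libraries at 500 mM were above all at 50 mM. The ratio of the mean FPKM was 2.52 in *daf-16* mutants (log2 change 1.31, SE 0.12, limma adjusted p = 4.64e-07) and 2.05 in wild type (log2 change 1.04, SE 0.12, limma adjusted p = 5.51e-06). Without the 2 wild-type libraries of the other number series the wild-type change was 1.08 (SE 0.08, limma adjusted p = 4.81e-07, within a range of 1.1e-07 to 0.000938 over 20 alternatives).

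The step was smaller in the *ssu-1* experiment. *ssu-1* mutants had 94.4, 92.9 and 99.2 FPKM of *wnk-1* at 500 mM, against 70.0 and 80.5 FPKM at 50 mM, a log2 change of 0.34 (SE 0.07, limma adjusted p = 0.00254). Wild type had 94.97, 88.5 and 88.6 FPKM at 500 mM, against 75.65 and 77.1 FPKM at 50 mM, a log2 change of 0.24 (SE 0.07, limma adjusted p = 0.00999). The groups did not overlap in either genotype. The wild-type call was lost without replicate 1 at 50 mM (limma adjusted p = 0.0679, within a range of 0.00415 to 0.0679 over 17 alternatives).

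The levels of the experiments lay farther apart at low than at high salt. Wild type at 50 mM averaged 40.8 ± 8.46 FPKM of *wnk-1* in the *daf-16* experiment (SD, n = 3) and 76.4 ± 1.03 in the *ssu-1* experiment (SD, n = 2), whereas at 500 mM it averaged 83.7 ± 0.56 and 90.7 ± 3.69 (SD, n = 3 each). The wild-type salt change was larger in the *daf-16* than in the *ssu-1* experiment by 0.79 on the log2 scale (95% interval 0.41 to 1.18, limma adjusted p = 0.00626), in a fit of the 11 wild-type libraries that called 2 of the 8 genes, against 31.6% of the 14638 genes tested. Without the 2 libraries of the other number series it was 0.84 (SE 0.08, limma adjusted p = 5.07e-05, the lowest over 18 alternatives, whose highest was 0.0801 with a replicate block). The experiments also differed in marker genes: wild type at 50 mM summed to 4148 to 5361 FPKM over 6 body muscle genes in the *daf-16* experiment and to 2155 to 2517 FPKM in the *ssu-1* experiment, and over 6 epidermis genes to 233 to 323 FPKM and 724 to 787 FPKM. At 500 mM the same sums were 3052 to 3413 and 1774 to 2130 FPKM for muscle, and 549.8 to 588 and 668 to 751 FPKM for epidermis. The part of tissue makeup or embryo age in the difference was not tested.

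*nkcc-1*, the gene of the sodium-potassium-chloride cotransporter, passed the test for salt in 1 of 4 comparisons. *daf-16* mutants had 38.6, 45.7 and 42.6 FPKM at 500 mM, against 40.8, 39.5 and 37.2 FPKM at 50 mM, and these overlapped (log2 change 0.11, 95% interval -0.12 to 0.33, limma adjusted p = 0.365). Wild type of that experiment had 45.1, 45.7 and 46.3 FPKM at 500 mM, against 28.0, 37.7 and 29.2 FPKM at 50 mM, with no overlap and a log2 change of 0.53 (SE 0.10, limma adjusted p = 0.000602). Of the 3 wild-type libraries at 50 mM, replicate 4 stood well above the other two, and without replicates 3 and 4 the change was 0.63 (SE 0.09, limma adjusted p = 9.56e-05, within a range of 1.31e-05 to 0.0204 over 20 alternatives).

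For the *ssu-1* experiment *nkcc-1* had 41.8, 40.0 and 45.3 FPKM in *ssu-1* mutants at 500 mM, against 42.65 and 42.9 FPKM at 50 mM. Wild type had 40.4, 41.9 and 44.8 FPKM at 500 mM, against 41.5 and 43.5 FPKM at 50 mM. The groups overlapped in both genotypes, with log2 changes of -0.02 (95% interval -0.16 to 0.13) in *ssu-1* mutants and -0.01 (95% interval -0.15 to 0.14) in wild type. The wild-type change was larger in the *daf-16* than in the *ssu-1* experiment by 0.54 (95% interval 0.20 to 0.88, limma adjusted p = 0.0224). That call rested on several libraries: the adjusted p was 0.0532 without wild-type 50 mM replicate 1 and 0.0923 without replicate 2 of the *ssu-1* experiment, 0.0542 without its 500 mM replicate 1, and 0.0506 without 500 mM replicate 6 of the *daf-16* experiment, within a range of 0.000505 to 0.143 over 18 alternatives.

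**Figure D2:**
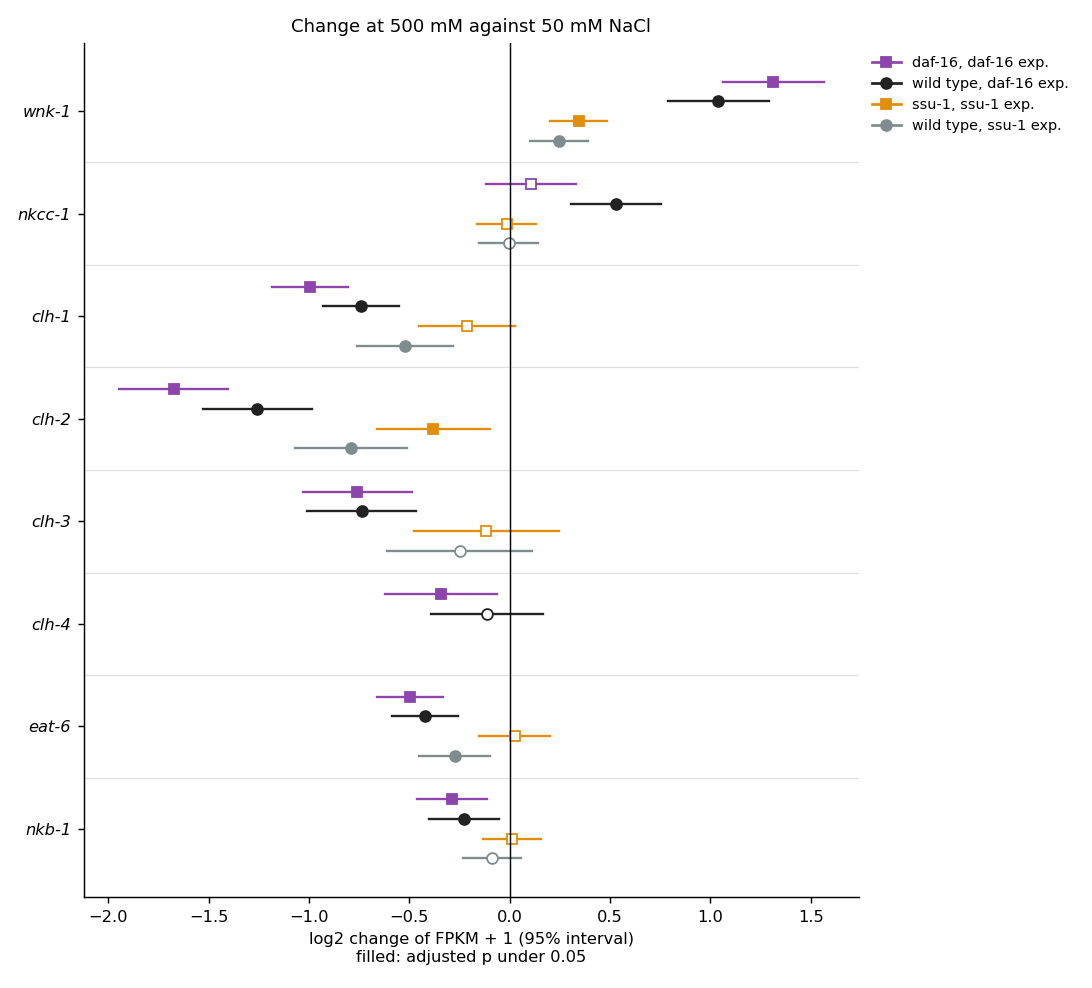
Log2 change of FPKM + 1 at 500 mM against 50 mM NaCl (x axis) for each gene (y axis), with its 95% interval from limma, in the 4 combinations of genotype and experiment. Filled symbols have an adjusted p below 0.05. *wnk-1* lies right of 0 throughout, *clh-1* and *clh-2* left of 0, with *clh-2* reaching -1.67 in *daf-16* mutants, and *clh-4* has no value in the *ssu-1* experiment.

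The 4 chloride channel genes of the CLC family fell or did not pass the test. *clh-1*, expressed above the other 3, had 13.2, 14.2 and 14.4 FPKM in *daf-16* mutants at 500 mM, against 27.8, 31.3 and 27.4 FPKM at 50 mM, and 16.4, 14.4 and 15.6 FPKM in wild type at 500 mM, against 26.4, 28.5 and 24.9 FPKM at 50 mM. No 500 mM library reached a 50 mM one, and the log2 changes were -0.995 (SE 0.09, limma adjusted p = 4.54e-07) and -0.74 (SE 0.09, limma adjusted p = 8.9e-06). In the *ssu-1* experiment *ssu-1* mutants had 16.02, 13.8 and 16.3 FPKM of *clh-1* at 500 mM, against 17.7 and 18.1 FPKM at 50 mM, and wild type had 12.3, 13.45 and 15.7 FPKM at 500 mM, against 21.5 and 18.99 FPKM at 50 mM. Neither genotype's groups overlapped, but only the wild-type change of -0.52 passed the test (SE 0.11, limma adjusted p = 0.00265), and that of -0.21 in *ssu-1* mutants did not (SE 0.11, limma adjusted p = 0.147).

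*clh-2*, a second channel gene of the family, showed the largest fall. *daf-16* mutants had 1.77, 1.90 and 2.31 FPKM at 500 mM, against 7.77, 8.96 and 8.91 FPKM at 50 mM, and wild type had 2.64, 2.82 and 2.06 FPKM at 500 mM, against 8.14, 6.88 and 7.09 FPKM at 50 mM. The ratio of mean FPKM was 0.233 in *daf-16* mutants (log2 change -1.67, SE 0.13, limma adjusted p = 1.18e-07) and 0.340 in wild type (log2 change -1.26, SE 0.13, limma adjusted p = 2.07e-06). *ssu-1* mutants had 2.55, 2.26 and 2.08 FPKM at 500 mM, against 3.02 and 3.57 FPKM at 50 mM, and wild type of the *ssu-1* experiment had 1.81, 1.57 and 1.78 FPKM at 500 mM, against 4.01 and 3.41 FPKM at 50 mM.

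The groups of *clh-2* did not overlap in any of these comparisons. Its log2 change was -0.38 in *ssu-1* mutants (SE 0.13, limma adjusted p = 0.0375) and -0.79 in wild type (SE 0.13, limma adjusted p = 0.000655). The call in *ssu-1* mutants held in 10 of 17 alternatives (adjusted p 0.0151 to 0.218). It was lost without either *ssu-1* 50 mM library (adjusted p = 0.0632 without replicate 1 and 0.218 without replicate 2) and without *ssu-1* 500 mM replicate 2 (0.0864) or 3 (0.107).

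*clh-3*, another channel gene of the family, was below 4 FPKM in every library. *daf-16* mutants had 1.64, 1.61 and 2.31 FPKM at 500 mM, against 3.71, 3.99 and 3.71 FPKM at 50 mM, and wild type had 1.67, 1.73 and 1.38 FPKM at 500 mM, against 3.29, 3.09 and 3.59 FPKM at 50 mM. With no overlap, the log2 changes were -0.76 (SE 0.12, limma adjusted p = 0.000105) and -0.74 (SE 0.12, limma adjusted p = 0.000186). The *ssu-1* experiment had 0.93 to 1.28 FPKM in *ssu-1* mutants at 500 mM and 1.23 to 1.38 at 50 mM, and 0.68 to 1.09 in wild type at 500 mM and 0.97 to 1.57 at 50 mM. There the groups overlapped, and the changes of -0.12 (95% interval -0.48 to 0.25) and -0.25 (95% interval -0.61 to 0.11) did not pass the test.

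*clh-4* was the least abundant gene, at 1.1, 1.43 and 1.19 FPKM in *daf-16* mutants at 500 mM, against 1.61, 1.97 and 1.94 FPKM at 50 mM. Its log2 change of -0.34 there (SE 0.13, limma adjusted p = 0.0271) came from groups that did not overlap, but held in only 13 of 19 alternatives (adjusted p 0.0115 to 0.599). It was lost without *daf-16* 50 mM replicate 2 (0.0819) or 3 (0.0761), without *daf-16* 500 mM replicate 1 (0.0881) or 3 (0.0695), and with FPKM rescaled to a common total (0.116) or quantile-normalized (0.599). Wild type at 500 mM had 1.57, 1.54 and 1.41 FPKM, between the highest and lowest of the 2.10, 1.70 and 1.38 FPKM at 50 mM, and its change of -0.11 (95% interval -0.39 to 0.17) did not pass. Libraries of the *ssu-1* experiment had *clh-4* at 0.63 to 0.89 FPKM in all 10 libraries.

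Summed over *clh-1* to *clh-4*, the FPKM were 19.04 ± 1.25 in *daf-16* mutants at 500 mM and 43.0 ± 2.82 at 50 mM, and 21.1 ± 1.06 in wild type at 500 mM and 39.0 ± 1.81 at 50 mM (SD, n = 3 each). *clh-1* made up 73.4% ± 1.82 of this sum in *daf-16* mutants at 500 mM and 67.0% ± 1.49 at 50 mM. The sum in the *ssu-1* experiment was 19.7 ± 1.38 in *ssu-1* mutants at 500 mM (SD, n = 3) and 23.3 ± 0.89 at 50 mM (SD, n = 2), and 17.2 ± 1.61 in wild type at 500 mM (SD, n = 3) and 25.9 ± 2.62 at 50 mM (SD, n = 2). The sums at 500 mM thus lay closer together over the groups than those at 50 mM.

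*eat-6*, the gene of the sodium pump alpha subunit, was the most abundant of the 8. It had 594, 660.2 and 636 FPKM in *daf-16* mutants at 500 mM, against 892, 883 and 895 FPKM at 50 mM, and 719.7, 686 and 672 FPKM in wild type at 500 mM, against 948, 889.5 and 946 FPKM at 50 mM. All 500 mM libraries were below all 50 mM libraries, with log2 changes of -0.50 (SE 0.08, limma adjusted p = 5.33e-05) and -0.42 (SE 0.08, limma adjusted p = 0.000295). In *daf-16* mutants the call was lost with quantile-normalized FPKM (adjusted p = 0.0828, within 1.63e-05 to 0.0828 over 19 alternatives).

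*eat-6* had lower FPKM in every library of the *ssu-1* experiment. *ssu-1* mutants had 501, 444 and 464 FPKM at 500 mM, against 433 and 490.15 FPKM at 50 mM, overlapping groups with a log2 change of 0.03 (95% interval -0.15 to 0.20). Wild type had 419.6, 382 and 443 FPKM at 500 mM, against 519 and 483 FPKM at 50 mM, without overlap and with a log2 change of -0.27 (SE 0.08, limma adjusted p = 0.0156). That call was lost without wild-type 50 mM replicate 1 (adjusted p = 0.125) or 500 mM replicate 2 (0.0525), within a range of 0.0106 to 0.125 over 17 alternatives.

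*nkb-1*, the gene of a beta subunit of the pump, had the smallest change of the genes called in each genotype of the *daf-16* experiment. It had 261, 284 and 295 FPKM in *daf-16* mutants at 500 mM, against 324, 355 and 345 FPKM at 50 mM, and 297, 296.5 and 274 FPKM in wild type at 500 mM, against 321, 327 and 369 FPKM at 50 mM. The groups did not overlap, and the log2 changes were -0.29 (SE 0.08, limma adjusted p = 0.00566) and -0.23 (SE 0.08, limma adjusted p = 0.0235). With FPKM rescaled to a common total neither passed (adjusted p = 0.299 and 0.246, the highest over 19 and 20 alternatives, whose lowest were 0.00222 and 0.00326). The wild-type call was also lost without 50 mM replicate 5 (0.0788) or 500 mM replicate 6 (0.0933), and the *daf-16* call with quantile-normalized FPKM (0.0724).

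Of *nkb-1*, the *ssu-1* experiment had 332 to 366 FPKM in *ssu-1* mutants at 500 mM and 324 to 366 at 50 mM, and 293 to 319.6 FPKM in wild type at 500 mM and 326 to 329 at 50 mM. Neither the change of 0.01 in *ssu-1* mutants (95% interval -0.13 to 0.15) nor that of -0.09 in wild type (95% interval -0.23 to 0.06) passed the test, although the wild-type groups did not overlap.

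Rescaling the libraries of the *daf-16* experiment mattered because their FPKM summed to 736577 to 782290 at 500 mM and 792189 to 877080 at 50 mM. With rescaled FPKM the median log2 change of all genes was 0.11 in *daf-16* mutants, against -0.06 unscaled, and 0.16 in wild type, against 0.06 unscaled. Relative to the median of all genes, *nkb-1* changed by -0.21 in *daf-16* mutants and -0.27 in wild type after rescaling, against -0.23 and -0.28 before it. Rescaling shifts nearly all genes of a library alike, and taking values relative to the median removes that shift. That all 83 such values of the 8 genes over the 11 comparisons kept their sign under rescaling is therefore no test. Under quantile normalization 76 of 83 kept it.

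**Figure D3:**
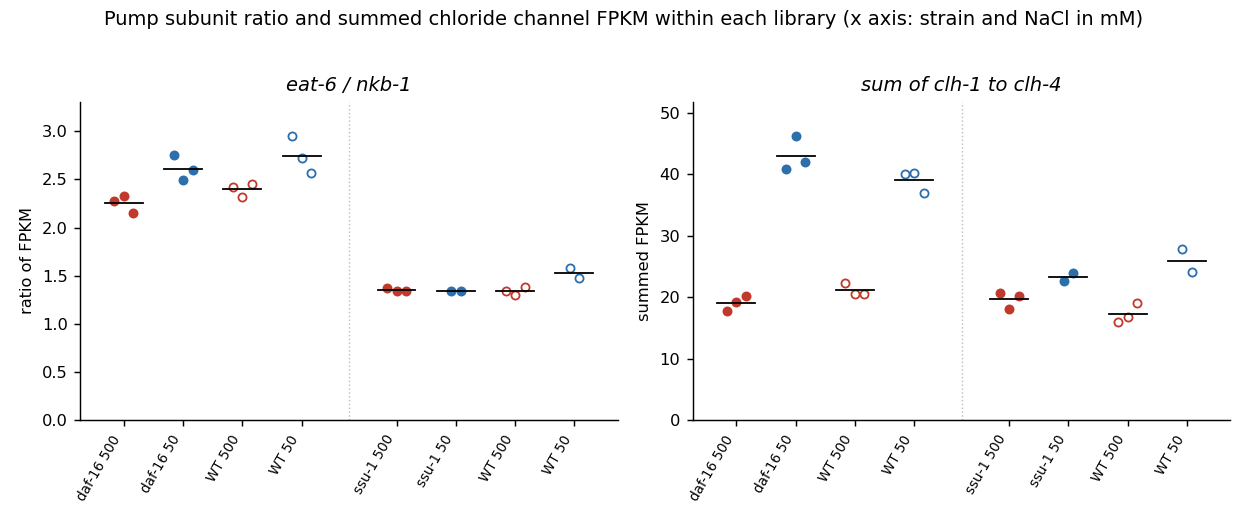
Ratio of FPKM of *eat-6* to *nkb-1* (left) and summed FPKM of *clh-1* to *clh-4* (right) within each library, by strain and NaCl concentration in mM (x axes), with the *daf-16* experiment left and the *ssu-1* experiment right of the dotted line. Points are libraries (red 500 mM, blue 50 mM, filled mutant, open wild type), bars are means and the y axes start at 0. The *eat-6* to *nkb-1* ratio lies between 2.16 and 2.95 in the *daf-16* experiment and between 1.301 and 1.58 in the *ssu-1* experiment.

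The ratio of *eat-6* to *nkb-1* mRNA differed more between the experiments than with salt. It is not the proportion of all alpha to all beta subunits, since the beta subunit gene *nkb-3*, at a mean of 131 FPKM over the 22 libraries, is left out of it. *eat-6* had 2.25 ± 0.09 times the FPKM of *nkb-1* in *daf-16* mutants at 500 mM and 2.61 ± 0.13 times at 50 mM, and 2.40 ± 0.07 times in wild type at 500 mM and 2.75 ± 0.19 times at 50 mM (SD, n = 3 each). Its counterpart in the *ssu-1* experiment was 1.35 ± 0.02 in *ssu-1* mutants at 500 mM (SD, n = 3) and 1.34 ± 0.003 at 50 mM (SD, n = 2), and 1.34 ± 0.04 in wild type at 500 mM (SD, n = 3) and 1.53 ± 0.07 at 50 mM (SD, n = 2). Every library of the *daf-16* experiment was above every library of the *ssu-1* experiment.

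In levels, which FPKM allows to be set side by side since it is scaled to length, *eat-6* stood first and *nkb-1* second in every library. *wnk-1* came next in the group means of all groups. *nkcc-1* followed, and its 28.0 to 37.7 FPKM in wild type at 50 mM of the *daf-16* experiment overlapped those of *wnk-1* above it and of *clh-1* below it, as did its 37.2 to 40.8 FPKM in *daf-16* mutants at 50 mM those of *wnk-1*. *clh-2* was above *clh-3* and *clh-4* in the group means of all groups.

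Compared with wild type at the same salt, none of these genes passed the test in either mutant. At 50 mM none of the 8 genes was called in *daf-16* mutants, against 3.68% of the genes tested, and 1 had an unadjusted limma p below 0.05. That gene was *nkcc-1*, with 40.8, 39.5 and 37.2 FPKM in *daf-16* mutants against 28.0, 37.7 and 29.2 FPKM in wild type. Its log2 difference of 0.31 (95% interval 0.09 to 0.54, limma adjusted p = 0.116) came from groups that overlapped through wild-type replicate 4. Without that library it was 0.44 (limma adjusted p = 0.00541), in a fit that called 1910 of 14827 genes, against 547 in the reported fit. Without both wild-type libraries of the other number series it was 0.41. Its limma adjusted p ranged from 0.00541 to 0.341 over 20 alternatives. None of the 7 genes tested was called in *ssu-1* mutants at 50 mM, against 0.646% of the genes tested, and 0 had an unadjusted limma p below 0.05.

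At 500 mM none of the 8 genes was called in *daf-16* mutants, against 29.2% of the genes tested, and 0 had an unadjusted limma p below 0.05. *wnk-1* had 99.5 ± 6.35 FPKM in *daf-16* mutants and 83.7 ± 0.56 in wild type (SD, n = 3 each), without overlap, but its difference of 0.24 did not pass (95% interval -0.01 to 0.50, limma adjusted p = 0.13). It passed without wild-type 50 mM replicate 4 (SE 0.07, adjusted p = 0.0226) and in a fit of the 2 groups alone (0.00864), within a range of 0.00864 to 0.277 over 19 alternatives.

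At 500 mM none of the 7 genes tested was called in *ssu-1* mutants, against 5.64% of the genes tested, and 3 had an unadjusted limma p below 0.05. These were *nkb-1*, with a log2 difference of 0.17 (95% interval 0.04 to 0.30, limma adjusted p = 0.129), *eat-6*, with 0.18 (95% interval 0.02 to 0.34, limma adjusted p = 0.198), and *clh-2*, with 0.28 (95% interval 0.03 to 0.53, limma adjusted p = 0.214). All 3 were higher in the mutants. *wnk-1* differed by 0.07 (95% interval -0.05 to 0.20) and *nkcc-1* by 0.00 (95% interval -0.13 to 0.13).

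**Figure D4:**
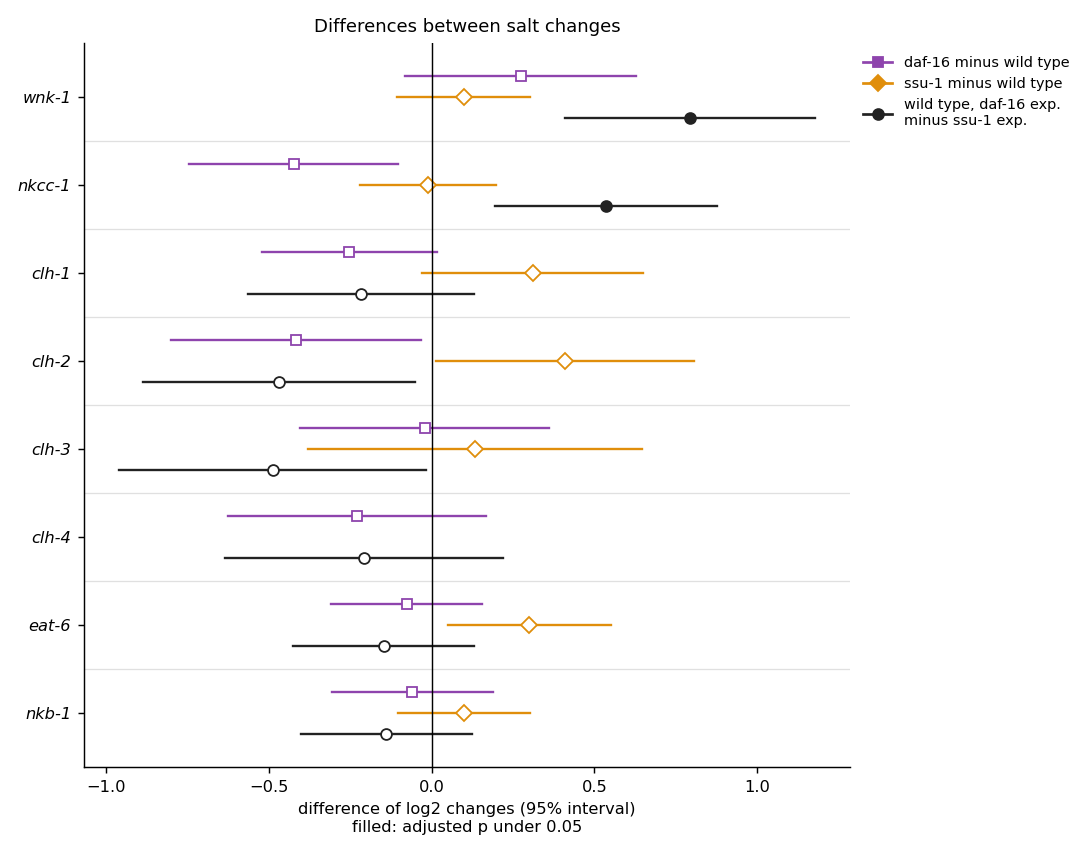
Difference between salt changes (x axis, log2 scale, with its 95% interval from limma) for each gene (y axis): *daf-16* mutants minus wild type, *ssu-1* mutants minus wild type, and wild type of the *daf-16* experiment minus wild type of the *ssu-1* experiment. Filled symbols have an adjusted p below 0.05, and these are *wnk-1* at 0.79 and *nkcc-1* at 0.54 in the comparison of the experiments.

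Whether the salt changes themselves depended on genotype was asked with the difference of the changes. In the *daf-16* experiment none of the 8 genes was called, against 18.1% of the genes tested, and 2 had an unadjusted limma p below 0.05. *nkcc-1* changed less in the mutants, by -0.42 (95% interval -0.74 to -0.10, limma adjusted p = 0.0626), and *clh-2* had a difference of -0.42 (95% interval -0.80 to -0.03, limma adjusted p = 0.114). Wild-type 50 mM replicates 3 and 4 each decided a call. Without replicate 4 *nkcc-1* passed at -0.55 (adjusted p = 0.00498, range 0.00498 to 0.192 over 19 alternatives). That fit called 3163 of 14827 genes, against 2685 in the reported fit. Without replicates 3 and 4 together the value of *nkcc-1* was -0.52. Without replicate 3 *wnk-1* passed at 0.40 (adjusted p = 0.0484, range 0.0484 to 0.454). For *eat-6* and *nkb-1* the difference was -0.08 (95% interval -0.31 to 0.15) and -0.06 (95% interval -0.31 to 0.19).

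None of the 7 genes tested was called in the *ssu-1* experiment, against 1.37% of the genes tested, and 2 had an unadjusted limma p below 0.05. These were *eat-6*, with a difference of 0.30 (95% interval 0.05 to 0.55, limma adjusted p = 0.267), and *clh-2*, with 0.41 (95% interval 0.01 to 0.81, limma adjusted p = 0.327). That *eat-6* and *clh-1* were called lower at high salt in wild type and not in *ssu-1* mutants is therefore not a tested difference between the genotypes. *clh-1* had 0.31 (95% interval -0.03 to 0.65, limma adjusted p = 0.382). For *wnk-1* the difference was 0.10 (95% interval -0.11 to 0.30).

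Other genes of ion transport and WNK signaling were read from 9 lists by symbol, with 73 genes found in the table. Of the 68 tested in the *daf-16* experiment, 9 were called higher and 46 lower at 500 mM in *daf-16* mutants, with a median log2 change of -0.43, and 13 higher and 39 lower in wild type, with a median of -0.28. Of the 63 tested in the *ssu-1* experiment, 9 were higher and 9 lower in *ssu-1* mutants, with a median of -0.05, and 9 higher and 30 lower in wild type, with a median of -0.23. Of all genes tested 37.1% were called higher and 41.1% lower in *daf-16* mutants and 36.7% and 33.5% in wild type of that experiment, 18.5% and 18.1% in *ssu-1* mutants, and 26% lower in wild type of the *ssu-1* experiment, with medians between -0.06 and 0.06.

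The remaining genes of each member's own family did not all move with it. *clh-5* and *clh-6*, relatives of the intracellular CLC transporters, rose at 500 mM in both wild types, by 0.74 (*clh-5*) and 0.47 (*clh-6*) in the *daf-16* experiment and by 0.22 and 0.27 in the *ssu-1* experiment (limma adjusted p at most 0.0336), where *clh-1* and *clh-2* fell. Of the 3 potassium-chloride cotransporter genes 1 rose and 2 fell in wild type of the *daf-16* experiment, and 2 fell in that of the *ssu-1* experiment. *kcc-3* fell in both wild types, by 0.89 in the *daf-16* and by 0.48 in the *ssu-1* experiment, and *kcc-2* fell in wild type of the *daf-16* experiment (-0.40, limma adjusted p = 0.000224) and had -0.15 in that of the *ssu-1* experiment (limma adjusted p = 0.118). *kcc-1* was called higher in wild type of the *daf-16* experiment (0.31, limma adjusted p = 0.0126) and lower in that of the *ssu-1* experiment (-0.40, limma adjusted p = 0.000713), a difference of 0.70 (limma adjusted p = 0.00425).

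Of 3 other pump genes tested 1 rose and 2 fell in wild type of the *daf-16* experiment, and 2 fell in that of the *ssu-1* experiment. *catp-3*, a P-type ATPase gene related to the alpha subunit, fell to 2.10 FPKM in wild type at 500 mM of the *daf-16* experiment, against 38.3 FPKM at 50 mM, and to 0.887 FPKM in wild type of the *ssu-1* experiment, against 6.41 FPKM at 50 mM. It was the only gene of these lists whose change was called different between *ssu-1* mutants and wild type (1.23, SE 0.19, limma adjusted p = 0.00953), with 3.55 FPKM at 500 mM and 6.675 FPKM at 50 mM in the mutants. *nkb-3*, another beta subunit gene, fell by 0.97 in wild type of the *daf-16* and by 0.59 in that of the *ssu-1* experiment, and *catp-1*, another P-type ATPase gene, rose by 0.43 in wild type of the *daf-16* experiment and had -0.24 in that of the *ssu-1* experiment (limma adjusted p = 0.0569). Of 6 genes whose mammalian relatives act with WNK or with kinases it activates, 4 rose and 1 fell in wild type of the *daf-16* experiment, and 2 rose in that of the *ssu-1* experiment. *cul-3*, whose mammalian relative takes part in WNK breakdown, rose by 1.105 and 0.35, and the phosphatase gene *gsp-2* by 0.62 and 0.23.

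Of 21 proton pump (V-ATPase) genes 14 were lower in wild type of the *daf-16* experiment, where 33.5% of all genes were, and 16 were lower and 1 higher in wild type of the *ssu-1* experiment, where 26% of all genes were lower. The most changed were *vha-7* (-0.88) and *vha-6* (-0.65) in the *daf-16* experiment, and *vha-11* (-0.42) and *vha-18* (0.40) in the *ssu-1* experiment. In mutants 17 of 21 were lower in *daf-16*, against 41.1% of all genes, and 2 of 21 in *ssu-1*, against 18.1%. Of the 13 calcium pump and exchanger genes tested in the *daf-16* experiment 2 rose and 8 fell in wild type, led by *ncx-7* (-2.21) and *ncx-4* (-1.07), and of 10 tested in the *ssu-1* experiment 1 rose and 5 fell, led by *ncx-7* (-1.12) and *ncx-4* (-0.68).

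Sodium-proton exchanger genes were mixed, with 1 higher and 6 lower of 9 in wild type of the *daf-16* experiment, led by *nhx-6* (-1.04) and *nhx-9* (-1.01), and 1 higher and 2 lower of 8 in that of the *ssu-1* experiment, *nhx-9* (-1.24) and *nhx-3* (0.94) being the most changed. *nhx-3* moved the other way in wild type of the *daf-16* experiment (-0.47), a difference of -1.41 (limma adjusted p = 0.000271). Of 4 bicarbonate transporter genes 1 rose and 2 fell in each wild type. *abts-4* rose (1.13 in wild type of the *daf-16* and 0.66 in that of the *ssu-1* experiment), *abts-3* (-0.77 and -0.56) and *abts-1* (-0.62 and -0.37) fell, and *abts-2* did not pass (-0.29 and -0.12). In the sulfate permease family 1 rose and 4 fell of 7 tested in the *daf-16* experiment, led by *sulp-2* (-1.34) and *sulp-4* (0.76), and 1 rose and 1 fell of 6 in the *ssu-1* experiment, the same pair at -0.64 and 0.43.

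**Figure D5:**
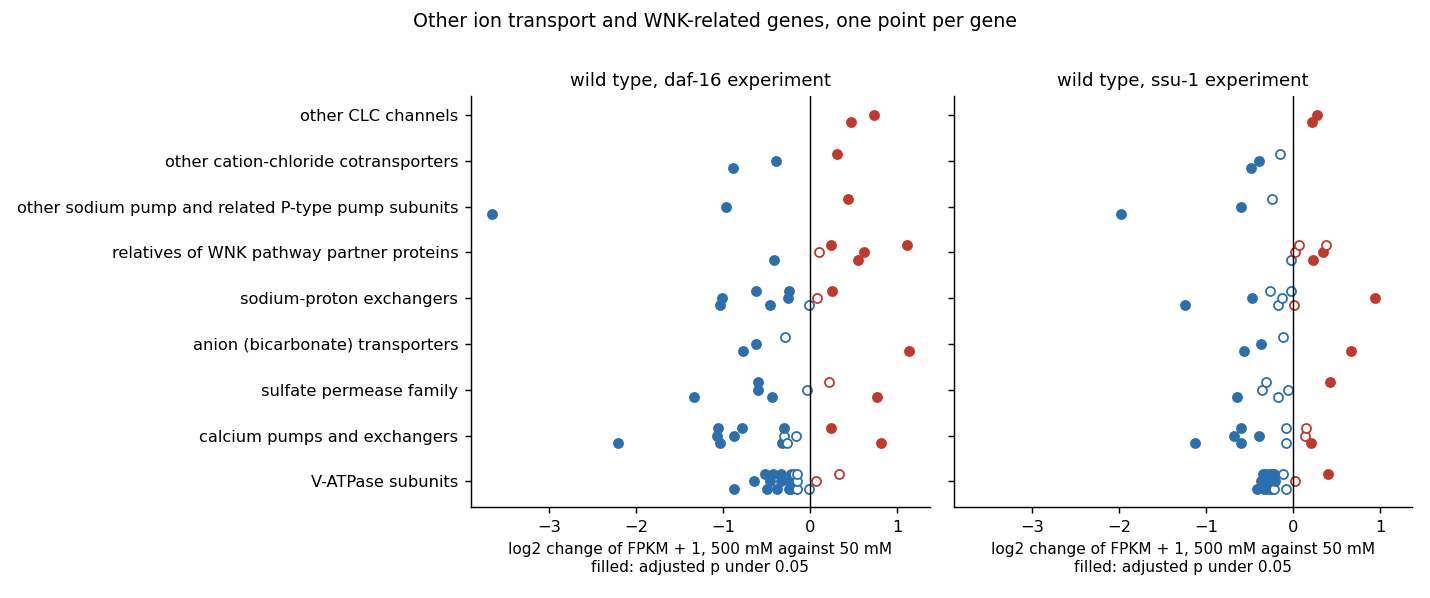
Log2 change of FPKM + 1 at 500 mM against 50 mM NaCl (x axes) for the other ion transport and WNK-related genes by list (y axis), in wild type of the *daf-16* experiment (left) and of the *ssu-1* experiment (right). Each point is a gene, red above 0 and blue below, filled where the adjusted p is below 0.05. *catp-3* is the point farthest left in both, at -3.66 and -1.98, and most V-ATPase genes lie left of 0.

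The genes whose pattern was most like that of each member were found by the correlation of log2(FPKM + 1), centred within experiments, over the 22 libraries and 8682 genes with a mean of at least 10 FPKM. The nearest to *wnk-1* was *gei-8* (Pearson r = 0.996), to *nkcc-1* *klp-20* (0.932), to *clh-1* *dyc-1* (0.986), to *clh-2* *rgs-2* (0.992), to *clh-3* T19D2.3 (0.939), to *clh-4* T10B10.4 (0.879), to *eat-6* *nkb-3* (0.986) and to *nkb-1* T01E8.1 (0.911). The libraries share their salt groups, so these values mainly rank genes that changed alike with salt and genotype, and are given as a description.

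Markers of tissue and age moved with salt beside these genes. The sum over 6 body muscle genes was 2541 to 3012 FPKM in *daf-16* mutants at 500 mM and 4564 to 4599 at 50 mM, and 3052 to 3413 FPKM in wild type at 500 mM and 4148 to 5361 at 50 mM. Of the 6, 4 fell in *daf-16* mutants and 3 in wild type, while *eat-6* and *nkb-1*, which muscle and neurons express, fell in both. The largest part of the muscle sum was *lev-11*, with a mean of 1677 FPKM over the 22 libraries. The median log2 change of the 6 muscle genes was -0.37 in *daf-16* mutants and -0.13 in wild type. The sum over 6 neuronal genes was 652 to 706 FPKM in *daf-16* mutants at 500 mM and 804 to 902 at 50 mM, and 674 to 729.8 FPKM in wild type at 500 mM and 818 to 907 at 50 mM. Among these neuronal genes 1 rose and 3 fell in each genotype. Intestine genes were mixed, with 3 of 6 tested higher and 1 lower in *daf-16* mutants, and 2 higher and 1 lower in wild type. Their sum, mostly *asp-1*, was 1125 to 1251 FPKM in *daf-16* mutants at 500 mM and 3093 to 3161 at 50 mM. In wild type it was 1289 to 1453 FPKM at 500 mM and 2922 to 4374 at 50 mM. In wild type of the *ssu-1* experiment 2 muscle and 3 neuronal genes fell and none rose, and 4 intestine genes rose and 1 fell. In *ssu-1* mutants 1 muscle gene rose, 1 neuronal gene rose and 2 fell, and 3 intestine genes rose. Of 10 early embryo genes 9 rose and 1 fell in *daf-16* mutants (median log2 change 2.24) and 8 rose and 1 fell in wild type (1.11), and in the *ssu-1* experiment 1 rose in *ssu-1* mutants (0.13) and 8 in wild type (1.14). Later embryo genes also rose in the *daf-16* experiment, with 5 of 10 higher and 1 lower in *daf-16* mutants (0.25). In its wild type 6 were higher and 1 lower (0.35). In the *ssu-1* experiment 1 rose and 2 fell in *ssu-1* mutants (-0.03), and 1 fell in wild type (-0.05). Of 6 epidermis genes 5 rose in each genotype of the *daf-16* experiment, whereas in the *ssu-1* experiment 2 fell in *ssu-1* mutants and 1 in wild type. All 6 markers of the excretory canal and duct reached 1 FPKM in every group, with sums of 316 to 391 FPKM over all libraries. Of the 4 hatched larva genes found 2 were tested, and 1 was lower in *daf-16* mutants, 1 higher and 1 lower in wild type of that experiment. Their summed FPKM are almost wholly those of *col-10*, a collagen gene. The part of these shifts in the changes of the ion transport genes was not tested.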

How the data were processed

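The authors mapped 75-nt stranded paired-end reads to the ce10 assembly with RSEM 1.2.15 and Bowtie 1.0.1, counting with strand, and deposited FPKM per gene and library. Their methods name DESeq2 on rounded counts, which were not used here. A row that names no gene was dropped from the 45461. Symbols came from RefSeq and Ensembl tables of another assembly, WBcel235 (44079 IDs matched), so no coordinates are given. Sequences are not printed.

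Tests used limma 3.58.1 (R 4.3.3; lmFit, eBayes with trend, two-sided) on log2(FPKM + 1), 1 fit per experiment and 1 over the 11 wild-type libraries. In simulated data with 200 genes changed 2-fold in wild type, the salt test recovered 198 in the *daf-16* design (14296 genes tested, 8 false calls) and 192 in the *ssu-1* design (13715, 13 false), and the difference test 127 (4 false) and 97 (6 false). The 8 genes, the other lists and the tests were chosen with earlier results of these data known. All 8 are named, and 1 further gene of the chosen set is not reported here. Of other lists the text gives counts and the most changed genes in wild type, and names the tested genes of some short lists whole. Alternatives were a pseudocount of 0.1, no filter, rescaling, quantile normalization, no trend, a replicate block, fits of 2 groups, and leaving out each library or both of the other number series. Figures were drawn with matplotlib 3.10.9.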

Additional observations from a re-analysis of the deposited data

Results flagged for a closer look

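The wild-type salt change of *wnk-1* differed between the experiments by the test of the difference itself, with a log2 value of 0.79 (*daf-16* experiment minus *ssu-1* experiment), and that of *nkcc-1* with 0.54. Neither passed with a replicate block (*wnk-1* 0.64, limma adjusted p = 0.0801; *nkcc-1* 0.49, limma adjusted p = 0.143), and *nkcc-1* was also lost in 4 fits that left out 1 library each. At the same salt the wild types of the experiments share no replicate number, so a call lost with the block does not show an effect of pairing. Both differences rest on the split of the libraries by their numbers.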

How the results depend on the processing

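Most single-gene results kept their direction and their side of the threshold: 573 values outside the fits that leave out a library did so, while 13 calls were lost and 4 gained, and of the fits leaving out a library 897 did so, 17 were lost and 4 gained. No called change turned its sign. Quantile normalization left 4 of the 8 genes called for salt in *daf-16* mutants, where 11280 of the 14868 genes tested were called. In *ssu-1* mutants 1 gene was called for salt, against 2 in the reported fit, with no filter, with a replicate block and with only the 2 groups compared. Over all genes these fits called 4779 of 20878, 4515 of 13924 and 5096 of 13548. The fit without the 2 wild-type 50 mM libraries of the other number series leaves 1 wild-type library at 50 mM. In it *nkcc-1* differed by 0.41 between *daf-16* mutants and wild type at 50 mM, and by -0.52 for the difference of their salt changes. For *nkb-1* the difference between the experiments was -0.26 there. With only the 2 groups compared, 1 gene was called between *daf-16* mutants and wild type at 500 mM (*wnk-1*), where 6296 of the 13822 genes tested were called. The causes were not tested. Over all genes, leaving out each library of the *daf-16* experiment in turn left 10928 to 11924 called for salt in *daf-16* mutants. In its wild type 9476 to 10826 were called, of 14791 to 14841 tested. Between *daf-16* mutants and wild type these fits called 148 to 1910 genes at 50 mM, 2234 to 5389 at 500 mM and 1268 to 3930 for the difference of salt changes.

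Leaving out 1 library at a time gave 6 to 7 calls for salt in *daf-16* mutants and in wild type of that experiment, 1 to 2 in *ssu-1* mutants and 2 to 4 in wild type of the *ssu-1* experiment. It gave 0 to 1 call for *daf-16* mutants against wild type at 50 mM, 0 to 1 at 500 mM and 0 to 1 for the difference of their salt changes, 1 to 2 for the difference between the experiments, and 0 in the other *ssu-1* comparisons.

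Correlations between libraries did not settle whether the replicate numbers pair them. Same-numbered libraries of different groups correlated between -0.376 and 0.338 in the *daf-16* experiment and between -0.522 and 0.356 in the *ssu-1* experiment. In these, 4 of 11 and 3 of 10 libraries correlated best with their own number. In a group of 2 libraries the values mirror each other. Those of the *ssu-1* experiment's wild type at 50 mM with 500 mM replicate 3 were 0.475 and -0.475. In *daf-16* mutants, same-numbered libraries at 50 mM and 500 mM correlated at 0.338, 0.244 and -0.105. With a replicate block 0 genes were called for the difference between the experiments (*wnk-1* 0.64, limma adjusted p = 0.0801, and *nkcc-1* 0.49, limma adjusted p = 0.143). The block also ended the salt calls of *clh-2* in *ssu-1* mutants (limma adjusted p = 0.0821) and of *nkb-1* in wild type of the *daf-16* experiment (0.058).

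Counts over all genes moved more: 90 genes were called between *ssu-1* mutants and wild type at 50 mM, and 56 with only the 2 groups compared, 31 without wild-type 50 mM replicate 1 and 154 without replicate 2, 786 at 500 mM, and 453 without wild-type 500 mM replicate 2, and 191 for the difference of their salt changes, and 93 to 349 when 1 library was left out, with a lower count also with no filter on low FPKM. In the *daf-16* experiment 4348 genes were called between *daf-16* mutants and wild type at 500 mM, and 613 with the block, 547 at 50 mM, and 67 to 2456 over the alternatives, 2685 for the difference of salt changes, and 1338 with the block, and 4621 between the experiments, and 1252 with the block. The share of higher calls was 37.9% for that difference of salt changes and 51.2% after rescaling, and 70.2% for *daf-16* mutants against wild type at 50 mM and 59.2% after rescaling. Depth limits *clh-3* and *clh-4*, whose counting error alone is large at 49 to 390 estimated fragments.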
